A study of Homo sapiens with 13 samples.

Results

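Wide S9.6 peaks were defined as stretches of at least 1200 bp called as enriched for DNA-RNA hybrids, on chromosomes 1 to 22 and X of the hg38 build and outside chr21:8100000-8600000. They came from a DNA-RNA immunoprecipitation sequencing (DRIP-seq) study of U2OS cells, a human osteosarcoma line labelled wild type. Of 37907 peaks on these chromosomes outside that stretch (39356 in all), 1654 were wide: 56 after transfection with a control siRNA (siCtrl), 671 after transfection with an siRNA against REXO4 (siREXO4) and 927 after transfection with an siRNA against RNaseH1 (siRNaseH1). The members were chosen by the width of the peak itself, so their number and widths are given as a description. The series holds 13 libraries, of which 9 are S9.6 immunoprecipitates (3 for each siRNA), 3 are inputs and 1 is an IgG control made from siCtrl cells. The question behind it was whether REXO4 and RNaseH1 process R-loops in the same regions. The 3 immunoprecipitated libraries of each transfection were merged before peaks were called, so there is 1 peak list per transfection. There are thus no replicates, no error between cultures and no test between transfections. The 95% Wilson intervals below cover counting error only. The labels give neither the time after transfection nor the siRNA sequences, and the parental line is the same in all 3 groups.

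An R-loop forms when nascent RNA pairs with its template DNA strand and displaces the other strand, and it is best known at the starts and ends of active genes, where GC-rich sequence favours the hybrid. The S9.6 antibody binds DNA-RNA hybrids and, more weakly, double-stranded RNA. RNaseH1 degrades the RNA of such hybrids, and REXO4 belongs to a family of exonucleases. In DRIP-seq on sonicated DNA, the width of a peak reflects the length of sequence recovered around a hybrid, which includes the flanking DNA of each fragment. Fragments here averaged about 500 bp, per the labels' protocols.

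The sequences below show the start of 6 genes at which the result turns on a wide peak. JUND (a subunit of the AP-1 transcription factor) and EIF4A1 (the RNA helicase of cap-dependent translation initiation) lay in a wide peak in all 3 lists. For DUSP1 (a phosphatase of MAP kinases), FOS (another AP-1 subunit) and HEXIM1 (an inhibitor of the elongation factor P-TEFb), the promoter lay in a wide peak of both knockdown lists and in no wide siCtrl peak. For PPP1R15A, a stress-induced subunit that targets a phosphatase to a translation initiation factor, the whole promoter window lay inside the wide siREXO4 peak. Each line gives the 250 bases before the annotated start, 5′ to 3′ on the strand of the gene, from RefSeq on GRCh38.p14, which uses the hg38 chromosome coordinates. Capitals mark TGACGTCA (a palindrome, the cyclic AMP response element), GGGCGG or its reverse complement CCGCCC (the GC box) and TATAAA on the strand of the gene (the TATA box). In DUSP1 a TGACGTCA and a CCGCCC stand directly side by side, and in no other line do 2 marked motifs touch. The positions are chr19:18281623-18281872 on the minus strand for JUND, chr17:7572575-7572824 on the plus strand for EIF4A1, chr5:172771196-172771445 on the minus strand for DUSP1, chr19:48872171-48872420 on the plus strand for PPP1R15A, chr14:75278578-75278827 on the plus strand for FOS and chr17:45148225-45148474 on the plus strand for HEXIM1.
JUND: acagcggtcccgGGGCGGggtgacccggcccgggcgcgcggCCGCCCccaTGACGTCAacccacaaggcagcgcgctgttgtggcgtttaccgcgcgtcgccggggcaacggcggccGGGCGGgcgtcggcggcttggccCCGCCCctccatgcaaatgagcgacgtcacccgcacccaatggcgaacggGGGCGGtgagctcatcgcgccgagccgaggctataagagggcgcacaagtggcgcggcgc
EIF4A1: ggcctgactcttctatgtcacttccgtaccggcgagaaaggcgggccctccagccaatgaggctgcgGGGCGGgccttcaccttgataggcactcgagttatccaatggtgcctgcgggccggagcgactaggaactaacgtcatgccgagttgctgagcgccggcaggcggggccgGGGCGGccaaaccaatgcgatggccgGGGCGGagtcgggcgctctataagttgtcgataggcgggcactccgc
DUSP1: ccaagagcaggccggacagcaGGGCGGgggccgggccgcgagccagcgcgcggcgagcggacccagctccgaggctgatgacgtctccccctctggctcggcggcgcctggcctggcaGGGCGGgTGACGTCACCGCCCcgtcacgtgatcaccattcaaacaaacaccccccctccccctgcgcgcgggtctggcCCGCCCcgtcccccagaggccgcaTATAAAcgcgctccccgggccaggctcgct
PPP1R15A: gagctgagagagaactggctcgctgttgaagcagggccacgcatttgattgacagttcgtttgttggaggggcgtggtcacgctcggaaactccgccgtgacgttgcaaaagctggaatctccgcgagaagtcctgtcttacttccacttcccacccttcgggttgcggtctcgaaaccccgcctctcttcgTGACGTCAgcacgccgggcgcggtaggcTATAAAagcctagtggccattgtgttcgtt
FOS: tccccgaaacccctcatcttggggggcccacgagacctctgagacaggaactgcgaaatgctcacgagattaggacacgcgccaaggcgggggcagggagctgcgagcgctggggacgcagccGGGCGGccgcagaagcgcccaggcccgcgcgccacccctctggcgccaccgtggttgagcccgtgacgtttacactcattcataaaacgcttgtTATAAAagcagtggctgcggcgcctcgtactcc
HEXIM1: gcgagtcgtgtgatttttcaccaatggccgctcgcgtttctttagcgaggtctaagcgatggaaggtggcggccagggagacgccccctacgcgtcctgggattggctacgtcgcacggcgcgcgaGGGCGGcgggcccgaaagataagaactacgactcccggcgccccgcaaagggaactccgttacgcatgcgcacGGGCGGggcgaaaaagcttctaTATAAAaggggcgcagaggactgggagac

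JUND, DUSP1 and PPP1R15A each carry 1 TGACGTCA, and DUSP1, PPP1R15A, FOS and HEXIM1 each carry 1 TATAAA. The printed promoters are examples and do not stand for all promoters in wide peaks. Of all promoter windows inside wide siREXO4 and siRNaseH1 peaks, TGACGTCA was in 6.92% and 6.12%, and TATAAA in 4.55% and 4.79%. The GC content of these 250 bases ranged from 57.2% in PPP1R15A to 74.8% in JUND. A match is a description of the letters and not a bound site.

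The deposited lists differed in length before any width was considered, with 4397 peaks in siCtrl, 12626 in siREXO4 and 20884 in siRNaseH1 on the chromosomes used. Fragment numbers at the summits were derived from the deposited fold and p-value, and the lowest number called was 7 in every list. The lowest background of each list, which is the coverage expected genome-wide, was similar, at 1.28 (siCtrl), 1.41 (siREXO4) and 1.36 fragments (siRNaseH1). Neither REXO4 nor RNASEH1 held a wide peak: REXO4 had no peak in any list, and RNASEH1 had 0, 1 and 3 narrow ones. Peaks do not measure a transcript, so they do not check the knockdowns.

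Wide peaks were 12 times as many in siREXO4 and 16.6 times as many in siRNaseH1 as in siCtrl, whereas peaks of any width were 2.87 and 4.75 times as many. They made up 1.27% of siCtrl peaks (95% Wilson interval 0.982 to 1.65), 5.31% of siREXO4 peaks (4.94 to 5.72) and 4.44% of siRNaseH1 peaks (4.17 to 4.73). The share was thus higher in both knockdown lists than in siCtrl by more than counting error. The order of the knockdowns turned with the length of the lists: with every list limited to its 4397 peaks of lowest p, 56, 649 and 797 peaks were wide, which is 1.27%, 14.8% (13.7 to 15.8) and 18.1% (17 to 19.3) in siCtrl, siREXO4 and siRNaseH1. This cut kept 649 of 671 wide siREXO4 and 797 of 927 wide siRNaseH1 peaks and left siCtrl whole, so it raises the knockdown shares by itself. In the full lists wide peaks together spanned 90.6, 1066 and 1513 kb in siCtrl, siREXO4 and siRNaseH1, or 5.12%, 16.4% and 14.3% of all bases in peaks.

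The typical wide peak had nearly the same width in each list, with medians of 1467, 1455 and 1474 bp. The lists differed in their upper tails. At least 2000 bp was reached by 8 siCtrl, 86 siREXO4 and 132 siRNaseH1 peaks, and at least 3000 bp by 1, 11 and 24. The widest of all was at FOSL1 in siCtrl (3051 bp), at KDM6B in siREXO4 (3632 bp) and again at FOSL1 in siRNaseH1 (7922 bp). At the 1200-bp limit the 5 members just inside measured 1200 to 1220, 1200 to 1203 and 1200 to 1201 bp in siCtrl, siREXO4 and siRNaseH1. The 5 peaks just outside measured 1165 to 1183, 1196 to 1198 and 1196 to 1199 bp.

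Wide peaks were also the strong peaks of their own lists. The authors' fold enrichment at the summit had a median of 7.99 for wide against 4.83 for narrower siCtrl peaks, 13.8 against 4.85 in siREXO4 and 13.2 against 5.09 in siRNaseH1. Of the 100 peaks with the highest fold in each list, 21 were wide in siCtrl, 76 in siREXO4 and 93 in siRNaseH1. In fragments at the summit, the median wide peak held 23, 51 and 52 in siCtrl, siREXO4 and siRNaseH1, and the median narrower peak 13, 14 and 16. Width and height come from the same fragments, so that they went together within each list is a description. The medians differed between lists more for wide than for narrower peaks. The narrower medians lay nearer the lowest number called, 7 fragments in every list, which leaves them less room to differ. Not every wide peak was high: 2, 17 and 25 had a fold under 5.

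No wide siCtrl peak was lost in either knockdown. All 56 were overlapped by a siREXO4 peak and by a siRNaseH1 peak, where 40.9% and 45.7% of siCtrl peaks of any width were overlapped. Of the 56, 44 were also wide in siREXO4, 7 met 1 narrower peak and 5 met several. In siRNaseH1, 38 were wide, 12 narrow and 6 split. The median share of a wide siCtrl peak covered by peaks was 97.4% in siREXO4 and 97.3% in siRNaseH1. Presence went with height as well as width: narrower siCtrl peaks at or above the median fold of the wide ones were overlapped in 96.2% of cases by each knockdown list. With every list limited to its 4397 peaks of lowest p, 6 and 20 of the 56 had no siREXO4 or siRNaseH1 peak, so their full presence held for the lists at their deposited lengths.

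**Figure D1:**
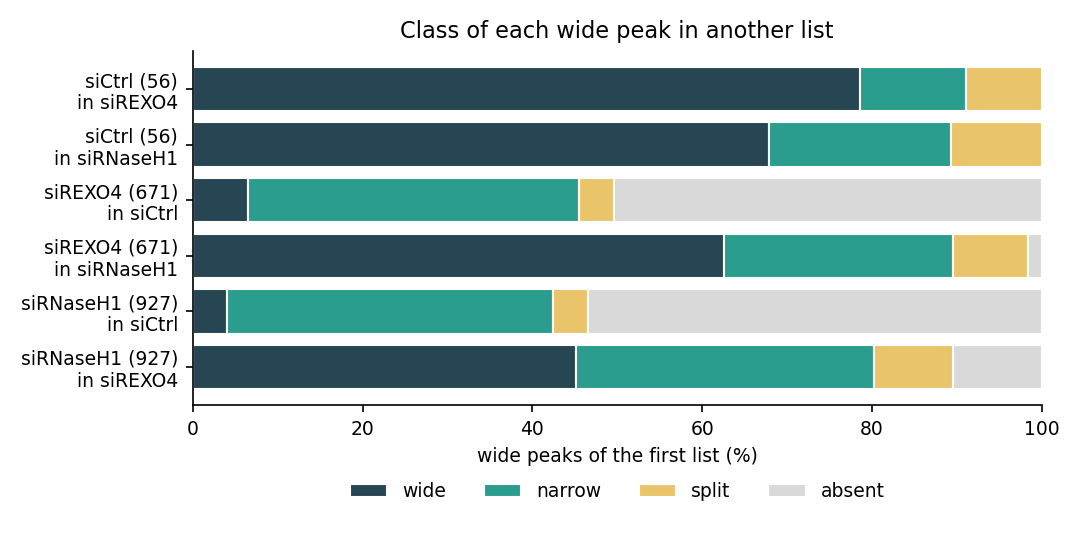
Share of the wide peaks of one list (number in parentheses) that met a wide peak, exactly 1 narrower peak, several narrower peaks (split) or no peak in another list. The siCtrl rows have no absent class, whereas 50.4% of wide siREXO4 and 53.4% of wide siRNaseH1 peaks had no siCtrl peak.

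Seen from the knockdowns, wide peaks fell into 2 main classes against siCtrl, sites without any siCtrl peak and sites with a narrower one. Among 671 wide siREXO4 peaks, 44 were wide in siCtrl, 261 narrow, 28 split and 338 absent (50.4%, interval 46.6 to 54.1). Among 927 wide siRNaseH1 peaks, 37 were wide in siCtrl, 356 narrow, 39 split and 495 absent (53.4%, interval 50.2 to 56.6). Presence in siCtrl was still more common than for peaks of any width, of which 14.1% and 9.45% met a siCtrl peak. It was also more common than for narrower peaks of at least the median wide fold: 61.9% against 45.6% in siREXO4 and 64.7% against 37.8% in siRNaseH1, for wide and narrower peaks above the same fold. In every such comparison a wide peak has more bases to meet another peak, so the width rule raises its share by itself. Above that fold, wide and narrower peaks were not matched in height. Where a single narrow siCtrl peak lay under a wide one, its median width was 544 bp under siREXO4 and 512 bp under siRNaseH1 peaks.

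The wide peaks without a siCtrl peak varied in height within their own lists. Where the siCtrl background was lowest, siCtrl peaks were called from 7 fragments. Scaled to that background, the knockdown summits of these peaks held a median of 5.50 times (siREXO4) and 5.37 times (siRNaseH1) this limit. At least 2 times that limit was reached by 336 of 338 and 482 of 495. The median background at all wide peaks was higher, at 2.53 (siREXO4) and 2.70 fragments (siRNaseH1). A call there needs more fragments, so the multiples are too high for such sites. These heights describe the knockdown lists, and the siCtrl signal below its calling limit at these sites was not measured. The nearest siCtrl peak lay a median of 68422 and 61784 bp away, and 15 and 39 of these peaks had one within 2 kb. Their own width was close to that of the other wide peaks, with medians of 1438 and 1416 bp, but they were lower: the median fold was 12 against 17.5 for those present in siCtrl in siREXO4, and 9.90 against 20.9 in siRNaseH1.

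KDM6B, a histone demethylase of the H3K27 mark, was the widest siREXO4 example without a siCtrl peak. It carried a peak of 3632 bp (chr17:7841461-7845092, inside the gene, 71 fragments) and another of 3017 bp (chr17:7833969-7836985, containing the start, 98 fragments). Both stretches were covered by siRNaseH1 peaks, to 86.5% and 92.9%, and the nearest siCtrl peaks were 89002 and 81510 bp away. HES4, a transcriptional repressor of the Hairy family, had a peak of 2806 bp in siREXO4 that covered 86.5% of the gene and of 2993 bp in siRNaseH1 that covered all of it, and the nearest siCtrl peak lay 14391 bp away. ZFP36L1, which binds AU-rich elements of mRNAs and promotes their decay, had 2755 bp in siREXO4 and 2 siRNaseH1 peaks over the same stretch. BCL9L, a coactivator of beta-catenin, had 3263 bp in siREXO4 and 2 narrower siRNaseH1 peaks covering 36.8% of it. The lncRNA OLMALINC had 2823 bp in siREXO4 and 2 narrower siRNaseH1 peaks. These sites were thus present in both knockdown lists and differed in how continuous they were.

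In siRNaseH1, the widest peaks without a siCtrl peak lay in OAZ1 (3426 bp, an inhibitor of ornithine decarboxylase), ARHGDIA (3371 bp), LRBA (3183 bp), SCFD1 (3036 bp), HES4 and the amino acid transporter gene SLC38A1 (2978 bp). OAZ1 was split into 3 pieces in siREXO4, covering 53.1% of the siRNaseH1 peak, and ARHGDIA and SLC38A1 were covered to 9.91% and 8.53%. No siREXO4 peak overlapped the LRBA and SCFD1 peaks, though one lay 852 bp from the LRBA peak. The LRBA and SCFD1 peaks lay 179861 and 45913 bp inside the gene and held 18 and 23 fragments, where ARHGDIA held 58 and HES4 87. Not all of these sites were clear of siCtrl peaks: one lay 348 bp from the ARHGDIA peak, 1322 bp from OAZ1 and 1446 bp from LRBA.

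Some wide knockdown peaks lay over several siCtrl peaks. The siREXO4 peak of 3196 bp over PPP1R15A (chr19:48872151-48875346) met 2 siCtrl peaks that covered 51.8% of it, and the siRNaseH1 peak there, of 3496 bp, was also met by 2. YWHAZ, a 14-3-3 protein gene, and DAPK3, a kinase gene, had single peaks of 3185 and 2549 bp in siREXO4 over 2 siCtrl peaks that covered 32.9% and 46.9%. KMT2E-AS1 (2165 bp) and a site 23544 bp from LINC01107 (2336 bp) were also split in siCtrl. In siRNaseH1, ACTG1 (cytoplasmic gamma-actin) had 4361 bp over 2 siCtrl peaks covering 34.4%, and MIDN had 4685 bp over 2 covering 15.6%. Within VCL (vinculin), a siRNaseH1 peak of 1682 bp met 3 siCtrl peaks that covered 57.3%, and a peak of 2104 bp outside PHKG1 met 3 that covered 69.0%.

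Most wide peaks of each knockdown list met a peak of the other, though not always a wide one and not evenly. Of 671 wide siREXO4 peaks, 420 were wide in siRNaseH1, 181 narrow, 59 split and 11 absent (1.64%, interval 0.918 to 2.91), where 54% of siREXO4 peaks of any width met a siRNaseH1 peak. Of 927 wide siRNaseH1 peaks, 418 were wide in siREXO4, 326 narrow, 86 split and 97 absent (10.5%, interval 8.65 to 12.6), where 32.4% of siRNaseH1 peaks of any width met a siREXO4 peak. Among peaks at or above the median wide fold, presence in the other knockdown was 99.4% for wide and 98.2% for narrower siREXO4 peaks, and 99.1% and 90.5% for siRNaseH1 peaks. The median share covered was 88.7% for siREXO4 peaks and 78.5% for siRNaseH1 peaks. With every list limited to 4397 peaks the absent shares were 14% for wide siREXO4 and 13.6% for wide siRNaseH1 peaks, so the difference between the knockdowns in this share was seen only at the deposited lengths. Of the 338 wide siREXO4 peaks absent from siCtrl, 175 were wide in siRNaseH1, 117 narrow, 36 split and 10 absent. Of the 495 wide siRNaseH1 peaks absent from siCtrl, 173 were wide in siREXO4, 190 narrow, 48 split and 84 absent. Both comparisons with siCtrl use the same siCtrl list.

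Joined across lists, the wide peaks formed 1183 separate loci. A wide peak stood in siRNaseH1 alone at 504 loci, in both knockdowns but not siCtrl at 382, in siREXO4 alone at 242 and in all 3 lists at 34. The remaining 21 were wide in siCtrl and siREXO4 (9), in siCtrl and siRNaseH1 (5) or in siCtrl alone (7). Wide in one list alone did not mean present in one list alone. A peak stood in every list at 169 of the 504 loci wide in siRNaseH1 alone, 78 of the 242 wide in siREXO4 alone and all 7 wide in siCtrl alone. Over all 1183 loci this number was 512. The 7 loci wide in siCtrl alone were named after their values were seen. They lie in or at TAFA5, TRB, LOC110467526, GABRG3, ETNK1, ASGR1 and TWIST2, measured 1206 to 1952 bp, and each met a narrower or split peak in both knockdowns. All 7 summits held 10 to 23 fragments.

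**Figure D2:**
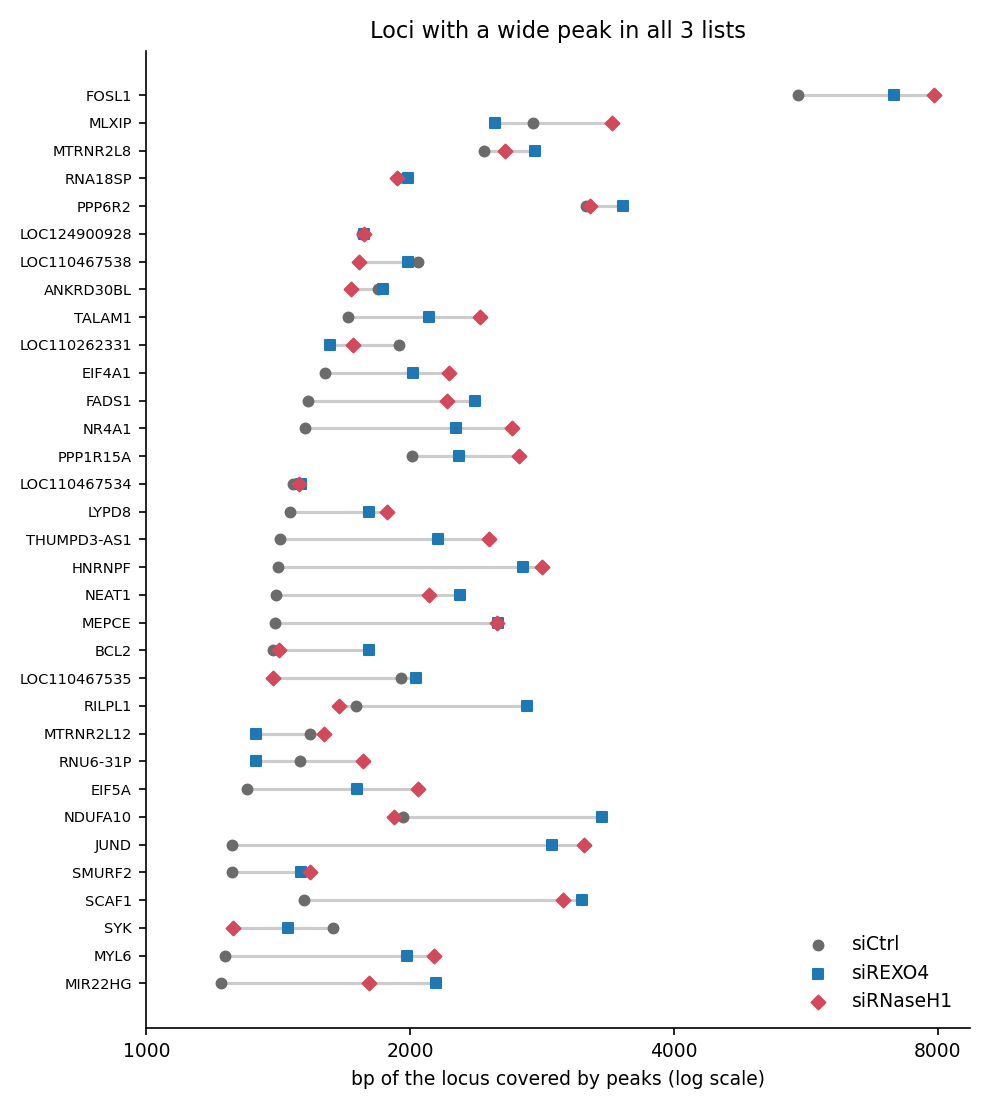
Base pairs covered by peaks at the 34 loci with a wide peak in all 3 lists, on a log scale, 1 row per locus named by its nearest gene, with 1 locus not shown. Genes such as JUND, HNRNPF and SCAF1 spread to the right in both knockdown lists, whereas LOC124900928, RNA18SP and LOC110467534 stay in place.

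At the 34 loci wide in all lists, the covered length had medians of 1568, 2119 and 2071 bp in siCtrl, siREXO4 and siRNaseH1. These loci were of different kinds, a split made after their values were seen. Over the 23 that overlap a protein-coding or lncRNA gene, the ratio to siCtrl had a median of 1.33 in siREXO4 and 1.43 in siRNaseH1, and 19 of them covered more in both knockdowns. Over the 11 at pseudogenes, mitochondrial-like or rRNA genes or no gene, the medians were 1.00 and 1.01, and 3 covered more in both. JUND was covered over 1253 bp in siCtrl, against 2905 and 3154 bp in the siREXO4 and siRNaseH1 lists, with 121, 383 and 924 fragments at the summit. LOC124900928, at one end of chromosome 5, measured 1762, 1770 and 1773 bp with 239, 385 and 355 fragments.

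The most continuous locus of the series was FOSL1, which encodes the AP-1 subunit FRA1. A single siRNaseH1 peak of 7922 bp (chr11:65892880-65900801) lay over 4 siCtrl peaks that covered 5547 bp and 5 siREXO4 peaks that covered 7122 bp of the locus. The highest summit held 41, 132 and 260 fragments in siCtrl, siREXO4 and siRNaseH1. In siCtrl the gene already had 2 wide peaks, the only gene with more than 1 in that list. By smallest width in any list, FOSL1 was followed by MLXIP, a glucose-responsive transcription factor gene, with 2764, 2497 and 3395 bp in siCtrl, siREXO4 and siRNaseH1. PPP6R2, a phosphatase subunit gene, covered 3172, 3496 and 3212 bp. At TALAM1, the antisense RNA of MALAT1, the peak measured 1699, 2099 and 2401 bp. MTRNR2L8 and RNA18SP, with 2429 and 1938 bp in siCtrl, are copies of multicopy RNA genes. ANKRD30BL and LOC110467538 measured 1840 and 2041 bp in siCtrl. Whether reads of the multicopy sequences account for peaks over such copies was not tested. Peaks over pseudogenes only made up 10 of the 56 wide siCtrl peaks (17.9%), against 1.94% in siREXO4 and 1.62% in siRNaseH1, and protein-coding genes 58.9%, 83.0% and 85.2%.

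Immediate early genes, which are transcribed within minutes of a stimulus without new protein synthesis, were the gene list with the highest share of members under a wide knockdown peak. Of 30 genes, 3 were overlapped by a wide siCtrl peak, 17 by a wide siREXO4 peak and 18 by a wide siRNaseH1 peak, 15 of them in both knockdowns. Over all 19974 protein-coding genes these shares were 0.175%, 3.29% and 4.25%, and a peak of any width overlapped 10.4%, 29.6% and 35.1%. Counting only genes with a peak of any width, 20.0% of the immediate early genes with a siCtrl peak, 65.4% of the immediate early genes with a siREXO4 peak and 72.0% of those with a siRNaseH1 peak had a wide one, against 1.68%, 11.1% and 12.1% of all protein-coding genes with a peak.

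Of the AP-1 genes in this list, FOSL1 and JUND were already wide in siCtrl, as described above. Widths given for members of gene lists, here and below, are of the widest peak over the gene in each list. These peaks need not lie at the same site. FOS had a widest peak of 646 bp in siCtrl, against 2239 bp after siREXO4 and 3609 bp after siRNaseH1. FOSB measured 730, 1564 and 6547 bp, and FOSL2 602, 1785 and 1666 bp. JUNB measured 987, 2226 and 2610 bp, and JUN 854, 2226 and 2138 bp. FOS, FOSB, FOSL2, JUNB and JUN were narrow in siCtrl and wide in both knockdowns, and the order between the knockdowns differed from gene to gene. FOS and FOSB were wider in siRNaseH1 by over 1000 bp, whereas JUN and FOSL2 were slightly wider in siREXO4.

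The EGR zinc-finger genes were wide in siRNaseH1 alone. EGR1 measured 266, 1150 and 3292 bp in the same order, and EGR3 406, 798 and 4069 bp. IER2 measured 274, 1553 and 3667 bp, and SRF, the serum response factor gene, 0, 1694 and 2644 bp, where 0 stands for no listed peak. Others had their widest single peak in siREXO4: ATF3, a stress-induced transcription factor gene, had 760, 2482 and 1590 bp, and ZFP36L1 0, 2755 and 1649 bp. At both loci siRNaseH1 had 2 peaks. Together its peaks covered 2377 bp at ATF3, against 2482 bp in siREXO4. At ZFP36L1 they covered 3185 bp, against 2771 bp in siREXO4, so the covered length there was greater in siRNaseH1. The ATF3 siCtrl peak of 760 bp lay elsewhere in the gene, and siCtrl had no peak at the ATF3 locus wide in both knockdowns. NR4A1, an orphan nuclear receptor gene, was already wide in siCtrl with 1516, 2256 and 2610 bp. DUSP1 measured 615, 1205 and 1496 bp, and MCL1 and ZFP36 passed 1200 bp in siREXO4 alone with 1245 and 1228 bp, against 1074 and 1195 bp in siRNaseH1. Over the 15 of these genes wide in both knockdowns and the 5 wide in one, no gene with a wide knockdown peak was without a peak in the other knockdown. As DUSP1, MCL1 and ZFP36 show, a member can cross 1200 bp on a small difference.

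**Figure D3:**
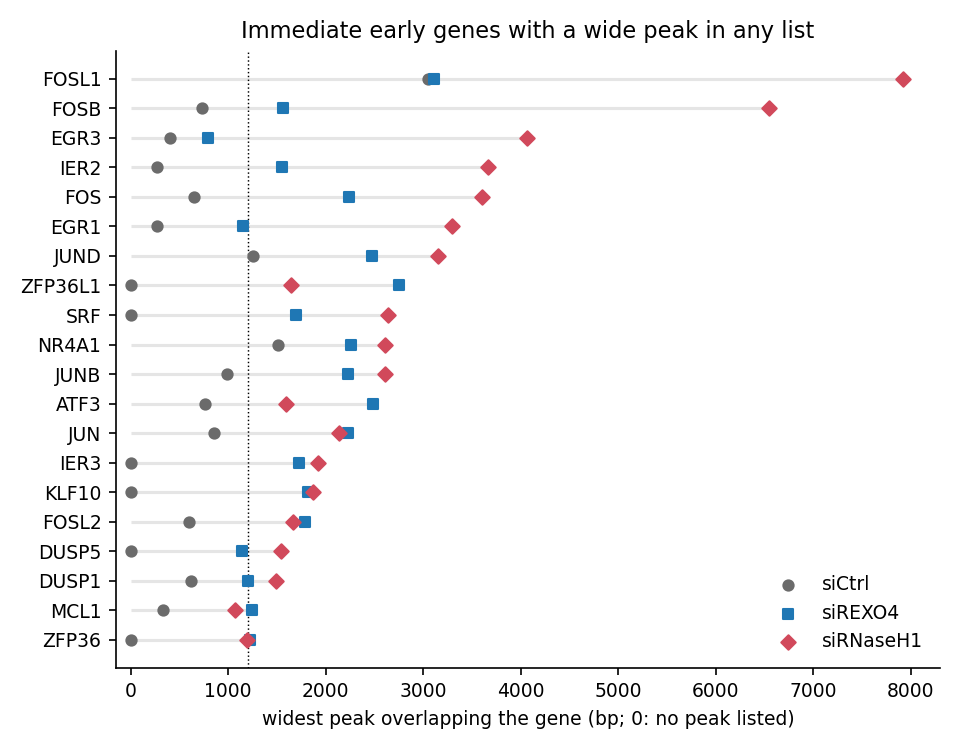
Width in bp of the widest peak over each of the 20 immediate early genes with a wide peak in any list, with 0 for no listed peak and the dotted line at 1200 bp. Only FOSL1, JUND and NR4A1 lie right of the line in siCtrl, and the siRNaseH1 peaks of FOSL1 (7922 bp) and FOSB (6547 bp) lie farthest to the right.

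Several of these genes are short enough to be covered from end to end, a set listed after its values were seen. At least 80% of the gene lay under wide peaks for 0 protein-coding genes in siCtrl, 10 in siREXO4 and 23 in siRNaseH1. In siRNaseH1 these included JUND (94.6%), FOSB (95.5%), JUNB (91.6%), FOSL1 (90.2%), FOS (84.7%), IER2 (84.0%) and PPP1R15A (92.3%).

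Ribosomal protein genes showed a wide peak chiefly in siRNaseH1. Of 79 genes, 0 had one in siCtrl, 4 in siREXO4 (5.06%) and 20 in siRNaseH1 (25.3%), and the 4 were among the 20. Over all protein-coding genes the shares were 0.175%, 3.29% and 4.25%. Peaks of any width were on 34, 58 and 71 of the 79. Of members with a peak, 6.90% had a wide one in siREXO4 and 28.2% in siRNaseH1, against 11.1% and 12.1% of all protein-coding genes with a peak, so the siREXO4 share was not above that of other genes. RPL37 measured 763, 749 and 2284 bp in siCtrl, siREXO4 and siRNaseH1, RPS10 469, 913 and 1843 bp and RPL27 673, 771 and 1749 bp. RPL18 was wide in both, with 1705 bp in siREXO4 and 1761 bp in siRNaseH1, and so was RPS16, with 1294 and 1484 bp. Of the 23 wide siRNaseH1 peaks over these genes, 12 contained an annotated protein-coding start.

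Other lists of genes of RNA and protein synthesis can be read against the same shares of all protein-coding genes with a peak, 11.1% in siREXO4 and 12.1% in siRNaseH1. Translation factor genes had 2, 3 and 9 of 35 members with a wide peak in siCtrl, siREXO4 and siRNaseH1, or 9.38% and 26.5% of members with a siREXO4 or siRNaseH1 peak. EIF4A1 measured 1598, 2015 and 2216 bp with 135, 302 and 712 fragments, and EIF5A 1303, 1738 and 2039 bp. EIF3G and EIF3D, subunits of an initiation complex, were wide in siRNaseH1 alone with 2336 and 1615 bp. Splicing factor and hnRNP genes had 1, 10 and 17 of 42, or 24.4% and 42.5% of members with a knockdown peak. HNRNPF measured 1414, 2689 and 2825 bp, HNRNPU 513, 1681 and 1929 bp, SRSF2 692, 2028 and 1779 bp and HNRNPL 938, 1910 and 1650 bp. Ribosome biogenesis and nucleolar genes had 0, 4 and 8 of 38, or 21.1% and 25.8% of members with a knockdown peak. Among them were NPM1 (755, 1252 and 2311 bp) and NCL (0, 1084 and 2419 bp), the genes of nucleophosmin and nucleolin, UTP4 (1110, 1443 and 2019 bp) and NOLC1 (388, 432 and 1800 bp). Of 18 snoRNA host genes, 0, 0 and 2 had a wide peak, SNHG3 with 1684 bp and SNHG15 with 1634 bp in siRNaseH1, where this was 14.3% of members with a peak.

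**Figure D4:**
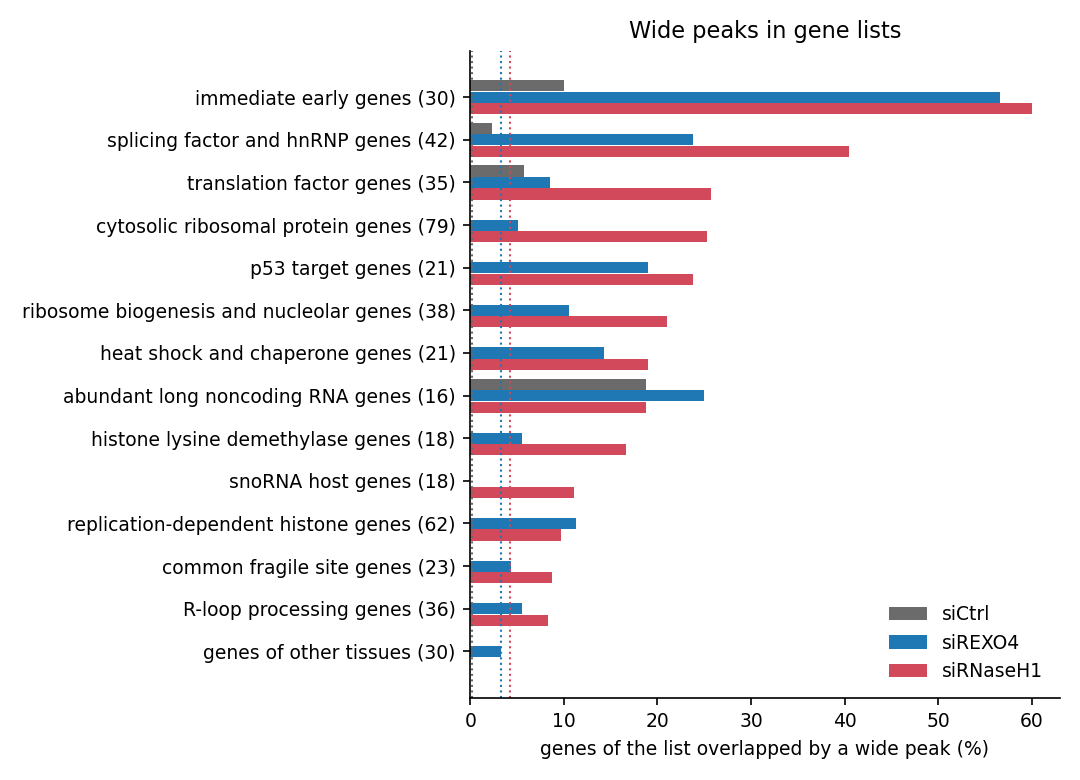
Share of the genes in each of 14 lists (number of genes in parentheses) overlapped by a wide peak, for the 3 peak lists, with dotted lines at the share of all protein-coding genes. Immediate early genes reach 56.7% in siREXO4 and 60.0% in siRNaseH1, and ribosomal protein genes 5.06% and 25.3%.

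In other lists the knockdowns were closer to each other. Shares in parentheses are of members with a siREXO4 or siRNaseH1 peak, to be read against 11.1% and 12.1% of all protein-coding genes with one. Of 21 p53 target genes, 4 had a wide siREXO4 and 5 a wide siRNaseH1 peak (25% and 31.3%), led by GADD45A, a growth arrest gene, with 1137, 2135 and 2130 bp in siCtrl, siREXO4 and siRNaseH1. TNFRSF10B, a death receptor gene, measured 308, 1860 and 1934 bp, the proapoptotic BBC3 266, 1737 and 1206 bp and PLK3, a stress kinase gene, 0, 926 and 1617 bp. The PLK3 peak of 926 bp lay outside the wide siRNaseH1 peak, under which the widest siREXO4 peak measured 436 bp. Heat shock and chaperone genes had 3 and 4 of 21 (23.1% and 22.2%). DNAJB1 measured 620, 1737 and 1500 bp and HSP90AA1 316, 1477 and 1413 bp, while PDIA3, a disulfide isomerase of the endoplasmic reticulum, and HSP90AB1 were wide in siRNaseH1 alone with 2075 and 1575 bp. Of 36 genes of R-loop processing, DDX5 (1642 and 1808 bp) and DHX9 (1704 and 1739 bp), both RNA helicase genes, were wide in both knockdowns, and DDX21 in siRNaseH1 alone (1504 bp). At 9.52% and 13.6% of members with a peak, these shares were near those of all protein-coding genes. Replication-dependent histone genes had 7 and 6 of 62 (35.0% and 40.0%), on only 4 and 5 peaks, since H2AC19, H3C15 and H4C15 share a peak of 2300 bp in siREXO4 and of 1509 bp in siRNaseH1.

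Among 16 abundant lncRNA genes, MALAT1, NEAT1 and MIR22HG were wide in all 3 lists. NEAT1, the scaffold of paraspeckles, measured 1406, 2280 and 2103 bp with 113, 285 and 775 fragments, and TUG1 was wide in siREXO4 alone (1428 bp). Members with a peak of any width numbered only 5, 9 and 9 in siCtrl, siREXO4 and siRNaseH1. Of these, 60%, 44.4% and 33.3% had a wide one, so this share was highest in siCtrl. Over all protein-coding genes with a peak it was 1.68%, 11.1% and 12.1%. Histone lysine demethylase genes had 1 and 3 of 18 (7.14% and 20.0% of members with a peak), which were KDM6B in both and KDM5A (2744 bp) and KDM3A (1390 bp) in siRNaseH1. Of 23 common fragile site genes, DAB1 was wide in both (1286 and 1222 bp) and FRMD4A in siRNaseH1 (1460 bp). These were 10.0% and 16.7% of members with a peak, near the 11.1% and 12.1% of all protein-coding genes with one. Genes of other tissues, which U2OS cells are not known to use, had 0, 1 and 0 of 30. The siREXO4 share was 3.33% of the list and 12.5% of members with a peak. It was near the 3.29% of all protein-coding genes and the 11.1% of those with a peak. The gene was CD8A, a T cell coreceptor gene, with a siREXO4 peak of 1548 bp (chr2:86789323-86790870) that held 431 fragments. In siRNaseH1 a peak of 1013 bp with 83 fragments covered 65.4% of it, and the nearest siCtrl peak lay 174708 bp away.

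Width and height ranked differently at some of the strongest sites. JUND was the highest wide siRNaseH1 peak, followed by NEAT1, PTPRS and EIF4A1. The PTPRS peak lay 31657 bp inside this receptor phosphatase gene and held 931 fragments over 1518 bp. Its siREXO4 counterpart, of 1197 bp and 309 fragments, fell 3 bp short of the limit. HEXIM1 was the highest wide siREXO4 peak, with 2913 bp and 499 fragments, and it narrowed to 1755 bp in siRNaseH1 while its summit held 828 fragments. The siCtrl peak there had 1073 bp and 137 fragments. GAPDH, a glycolytic enzyme gene, had 3268 bp in siREXO4, where siRNaseH1 had 2 peaks of 2510 bp in all and siCtrl 1 peak of 1042 bp. CD8A and THUMPD3-AS1, whose peak also overlaps SETD5, were among the 4 highest by fold in siREXO4. In siCtrl the 4 highest included LOC102724250 (2343 bp over mitochondrial pseudogenes, 3118 fragments), MTRNR2L8 and JUND.

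Among the widest siRNaseH1 peaks, MYADM, a membrane protein gene, had 4998 bp over 2 siREXO4 peaks that covered 70.6% and 1 siCtrl peak that covered 12.1%. UBALD1 had 3973 bp and CNN2, a calponin gene, 3733 bp, and both were split in siREXO4 and narrow in siCtrl. The siREXO4 peak of 3312 bp near NDUFA10 lay outside genes, 25190 bp from the nearest. MAG and LOC124902163 gave wide siCtrl peaks of 2557 and 2280 bp that were wide in siREXO4, with 1994 and 2208 bp, and split or narrow in siRNaseH1.

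Wide peaks lay closer to gene boundaries than narrower ones in every list. The summit was within 2 kb of an annotated gene boundary for 57.1% of wide siCtrl peaks (interval 44.1 to 69.2), 80.2% of wide siREXO4 peaks (77 to 83.0) and 72.6% of wide siRNaseH1 peaks (69.6 to 75.4). Narrower peaks gave 27.2%, 42.6% and 33.8%. Counting only genes whose strand was known, 66.5% of wide siREXO4 and 56.1% of wide siRNaseH1 peaks had the summit near a gene start, and 3.87% and 7.98% near an end. In siCtrl these were 28.6% and 1.79%. Chromosome 19, which is rich in genes, held 13.3% of wide siREXO4 and 12.9% of wide siRNaseH1 peaks, against 7.71% and 6.51% of all peaks in these lists.

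A protein-coding start was contained in 406 wide siREXO4 and 470 wide siRNaseH1 peaks. The peaks reached a median of 624.5 bp upstream and 844.5 bp downstream of the start in siREXO4, and 553.5 and 904 bp in siRNaseH1. More of the peak lay downstream in 61.3% (interval 56.5 to 65.9) and 68.1% (63.7 to 72.1). Narrower peaks that contain a start were more one-sided, with 77.9% and 80.1% lying more downstream. Their medians were 206 bp upstream and 461.5 bp downstream in siREXO4, and 197 and 481 bp in siRNaseH1. The width rule itself makes wide peaks longer around the start, and with summits at similar offsets a longer peak is also less one-sided.

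**Figure D5:**
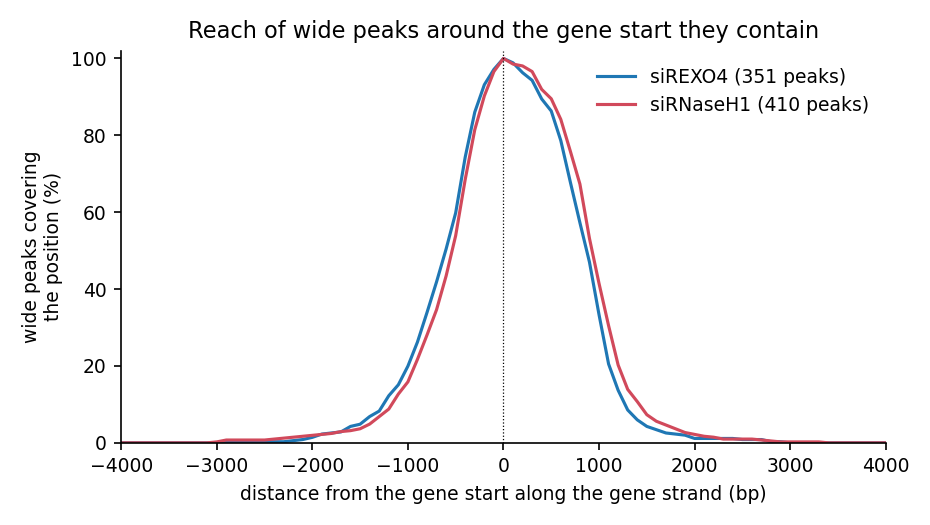
Share of wide peaks that cover each position around the annotated protein-coding start they contain, along the gene strand, for the 351 siREXO4 and 410 siRNaseH1 peaks whose starts are all on 1 strand. Between 200 and 1500 bp from the start, the siRNaseH1 curve lies right of the siREXO4 curve on both flanks. Farther out, where few peaks reach, the curves cross.

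The same pairs of peaks can be followed between lists. Since the members were chosen as the wider peak of each pair, the lengths are a description. At 145 starts where a wide siREXO4 peak lay over a single narrow siCtrl peak, it reached a median of 466 bp farther upstream and 434 bp farther downstream, and was extended more downstream in 51.0% (interval 43.0 to 59.0). At 182 such siRNaseH1 peaks the medians were 422.5 and 458 bp, with 57.1% (49.9 to 64.1) extended more downstream. The summits moved little, by a median of 64 and 56 bp, and 88.3% and 87.9% lay within 200 bp of the siCtrl summit. Where a wide siRNaseH1 peak lay over a single narrow siREXO4 peak (150 starts), it reached 118 bp farther upstream and 242 bp farther downstream, with 64.7% (56.7 to 71.9) extended more downstream. In the reverse case (95 starts) the siREXO4 peak reached 196 bp farther upstream and 172 bp farther downstream, with 48.4% (38.6 to 58.3).

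Location also differed with the class of a wide peak. Among wide siRNaseH1 peaks that were wide in siREXO4 too, 84.7% lay near a gene boundary and 71.3% near a start. Among the 97 that siREXO4 lacked, 25.8% (interval 18.1 to 35.3) lay near a boundary and 6.19% near a start, while 59.8% (49.8 to 69.0) lay inside a gene and farther than 2 kb from its ends. These 97 had a median width of 1419 bp against 1552 bp, and held a median of 19 fragments at the summit against 76. A siREXO4 peak lay within 2 kb of 21 of the 97, and the siREXO4 signal below its calling limit at these sites was not measured. Named after their values were seen, the widest were in DST (3366 bp), LRBA, SCFD1, TEAD3 (2674 bp), DNAH14 (2504 bp) and SMARCC2 (2313 bp), and all but TEAD3 and SMARCC2 lay at least 45494 bp inside the gene. SMARCC2 had 2 siCtrl peaks and DST 1. Wide siREXO4 peaks absent from siCtrl were at boundaries more often than those absent from siCtrl in siRNaseH1, at 85.5% (81.4 to 88.9) against 71.5% (67.4 to 75.3).

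By gene, 35 protein-coding genes were overlapped by a wide siCtrl peak, 658 by a wide siREXO4 peak and 849 by a wide siRNaseH1 peak. The knockdowns shared 437, which is 66.4% of the siREXO4 and 51.5% of the siRNaseH1 genes, and 166 of the 437 had no siCtrl peak of any width. Of the 221 genes wide in siREXO4 and not in siRNaseH1, 9 had no siRNaseH1 peak. Of the 412 with the opposite pattern, 32 had no siREXO4 peak. Over all protein-coding genes, a peak of any width overlapped 10.4% in siCtrl, 29.6% in siREXO4 and 35.1% in siRNaseH1. Genes with several wide peaks in siREXO4 included KDM6B, MNT, a repressor of the MAX network, with 2, FOSL1 with 3 and LOC107984156 with 4. In siRNaseH1, MAP1LC3B (an autophagy protein gene), MAFF (a small MAF transcription factor gene), PTMA (prothymosin alpha) and TPM4 (a tropomyosin gene) had 3 each.

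Promoters inside wide peaks were GC-rich, as were those inside narrower peaks. The median GC content of the 300-bp RefSeq windows, from 250 bp before to 50 bp after the start, was 68.7% for the 549 inside wide siREXO4 peaks and 69.7% for the 605 inside wide siRNaseH1 peaks. It was 69.3% inside narrower peaks of either list and 62.3% over all 22132 windows. Median GC skew, the excess of G over C on the strand of the gene divided by their sum, was 0.0442 and 0.0392 in wide peaks and 0.0260 and 0.0378 in narrower ones, against 0.0204 over all. The intervals of the wide medians, 0.0237 to 0.0647 and 0.0202 to 0.0558, held the narrower medians.

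TGACGTCA, searched in the 250 bases before the start as in the printed promoters, was found in 6.92% of windows inside wide siREXO4 peaks (interval 5.08 to 9.36) and 6.12% inside wide siRNaseH1 peaks (4.47 to 8.32). It was found in 4.04% and 4.42% inside narrower peaks, 2.02% of all windows and 1.45% of those that no knockdown peak overlapped. GGGCGG on either strand was in 80.3% and 80.2% inside wide peaks, 77.8% and 78.8% inside narrower ones and 53.7% of all. TATAAA on the strand of the gene was in 4.55% (3.10 to 6.64) and 4.79% (3.36 to 6.80) inside wide peaks, 2.26% and 1.77% inside narrower ones and 6.16% of all. Promoters in wide and narrower peaks thus differed little in GC boxes. TATAAA was less frequent in promoters under narrower peaks than over all windows, whereas the intervals of the wide shares held the share over all. Windows of 1 gene can overlap, so these intervals are too narrow.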

How the data were processed

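The 3 merged peak lists, 1 per transfection of U2OS cells, were each made from 3 immunoprecipitated libraries pooled before calling, per the labels. Peaks are in the MACS2 layout, and MACS2 2.1.0.20150731, SAMtools 1.17, HISAT2 2.2.1, Trim Galore 0.6.10, deepTools 3.5.1, Cufflinks and hg38 are listed in the submitters' processing notes. For the calling options and the control library, the sources used here give nothing. Each deposited peak has a start, an end and a summit. The deposited fold enrichment is a ratio of the summit to the background of the peak caller, and the library behind that background is not given. For the same summit the authors give −log10 p, −log10 q and a score (10 times the −log10 q). Folds were used only within a list. Read depth is unknown.

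Fragments at the summit were recovered from fold, (fragments + 1) / (background + 1), and the Poisson p, within 0.001 in −log10 p for all peaks below 300. A wide peak was classed against another list by any overlap of at least 1 bp as wide, narrow (exactly 1 peak under 1200 bp), split (several, all under 1200 bp) or absent. Genes and promoter windows came from RefSeq GRCh38.p14 tables, which have starts for 15812 of 19974 protein-coding genes. A gene held a wide peak if its body overlapped it. All 469 symbols of the 14 gene lists were found.

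Named genes were the 8 widest and 4 highest peaks of each list, the 10 loci widest in all lists, up to 6 knockdown peaks without and 5 with several siCtrl peaks, up to 4 members per gene list, genes with several wide peaks, and REXO4 and RNASEH1. Some genes that the rule names are not reported here. Further names, including more members of the gene lists, were added after their values were seen. The members, gene lists and comparisons were chosen with earlier results of these data known. Simulated peaks served to test the code. Software was Python 3.11.15 with pandas 2.3.3, NumPy 2.4.6, SciPy 1.17.1 and Matplotlib 3.10.9.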

Additional observations from a re-analysis of the deposited data

How the results depend on the processing

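No paired analysis was possible because each list pools its 3 libraries, and for the same reason no library could be left out. Of 87 values under alternatives that bear on the main results, 52 stayed within 1.5 times (counts) or the 95% interval (shares and medians), and 35 moved. The order siCtrl, siREXO4, siRNaseH1 in number of wide peaks held in every alternative run. With a width of 1000 bp, 107, 1162 and 1570 peaks were wide, and with 1500 bp 26, 302 and 433. The absent shares then were, at 1000 and 1500 bp, 56.5% and 44.0% for siREXO4 in siCtrl, 60.6% and 45.7% for siRNaseH1 in siCtrl, and 13.1% and 8.31% for siRNaseH1 in siREXO4. For siREXO4 in siRNaseH1 the share at 1000 bp was 2.93%. With −log10 q of at least 5 in every list, the absent shares were 62.9% (siREXO4 in siCtrl), 65.9% (siRNaseH1 in siCtrl), 3.91% (siREXO4 in siRNaseH1) and 16.5% (siRNaseH1 in siREXO4). Joining peaks within 500 bp gave 88 wide siCtrl and 1552 wide siRNaseH1 peaks, with absent shares of 62.5% for siRNaseH1 in siCtrl, 3.36% for siREXO4 in siRNaseH1 and 23.2% for siRNaseH1 in siREXO4.

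With each list cut to its 4397 peaks of lowest p, the absent share was 49.8% for siRNaseH1 in siCtrl, and 14% and 13.6% for siREXO4 in siRNaseH1 and the reverse. The greater absence of siRNaseH1 peaks from siREXO4 thus depended on the lists' lengths. In these lists 6 and 20 of the 56 wide siCtrl peaks were absent from siREXO4 and siRNaseH1, so their full presence depended on list length as well. The wide share there was 14.8% in siREXO4 (649 peaks) and 18.1% in siRNaseH1 (797), the reverse of the order in the full lists. A cut by p keeps most wide peaks and drops mainly narrower ones, so it raises these shares by itself. At 1500 bp the median coverage of siRNaseH1 peaks was 14.6% by siCtrl and 75.4% by siREXO4, and the median fold 10.5 in siCtrl and 15.4 in siREXO4. The share near a gene boundary was 73.2%, 86.7% and 83.9% in siCtrl, siREXO4 and siRNaseH1 with a 5-kb flank, and 75% and 65.0% in siREXO4 and siRNaseH1 with a 1-kb flank. Leaving out wide peaks over pseudogenes only, mitochondrial-like or rRNA genes or no gene, an alternative chosen after seeing the data, left 34 in siCtrl. Read depth is unknown, and whether narrower or absent sites would be wide in deeper libraries was not tested.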

Other observations

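Outside the chromosomes and stretches used, a further 49 siCtrl, 68 siREXO4 and 62 siRNaseH1 peaks measured at least 1200 bp. Of these, 22, 26 and 21 lay in the left-out stretch of chromosome 21 and the others on other contigs. Unlike the wide peaks of the main chromosomes, these were of similar number in the 3 lists.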
